A study of Mus musculus with 3 samples.

Results

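The cytosolic ribosomal protein genes encode the protein subunits of the ribosome. They were taken as all array probes whose gene symbol is Rpl or Rps followed by a digit, or Rplp0, Rplp1, Rplp2 or Rpsa, without the Rps6k kinases. The rule found 84 of the 25697 probes of the array, for 66 of its 16593 named genes. They stood for 35 genes of the large subunit (47 probes), 23 genes of the small subunit (28 probes) and 6 paralogues (7 probes). The other 2 genes are Rps19bp1, named for a protein that binds Rps19, and the retrogene Rps23rg1.

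RNA of 3 pluripotent mouse lines was hybridised to Illumina bead arrays, each line to 1 array. E3 (hybrid background) and T9 (129 background) are epiblast stem cell (EpiSC) lines, which resemble the epiblast after implantation. Both grew on inactivated CF1 embryonic fibroblasts, with FGF2 at 5 ng/ml, and were collected with collagenase IV. OG2 (hybrid background) is an embryonic stem cell (ESC) line, which resembles the epiblast before implantation. It grew on gelatin with LIF (1000 U), PD0325901 (1 uM), which inhibits MEK, and CHIR99021 (3 uM), which inhibits GSK3, and was harvested on its dish. KSR medium was the base for all 3 lines. Cell type, additives, feeders and harvest changed together and cannot be told apart. The ESC state is represented by 1 line, and p-values measure only the spread between the 2 EpiSC lines. The limma test shares this spread in part over all tested probes, so a printed SE is not that of its probe alone.

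A ribosome is built from ribosomal RNA and a set of proteins, most of them present in 1 copy, and the genes of these proteins are expressed together. Their mRNAs typically begin with a tract of pyrimidines, the 5′ terminal oligopyrimidine (TOP) sequence, through which mTORC1 signalling controls their translation. Myc promotes transcription of ribosomal protein genes, and several free ribosomal proteins bind Mdm2 and thereby stabilise p53.

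The start sequences of 11 genes are given to show the pyrimidines near the start, in longest runs of 4 to 19 bases. The sequences are the 30 bases around the transcription start, 15 on each side, in the RefSeq promoter table (GRCm38.p6). They are given 5′ to 3′ on the gene's strand, with the longest run of C and T in capitals. The first 15 bases lie before the listed start, so a run in capitals can lie partly or wholly outside the mRNA. Rpl22, Rpl22l1, Rplp0, Rpl27a and Rps15a are shown because they lay highest in EpiSC relative to ESC. Rpl5, Rps9 and Rps25 are shown because their EpiSC means lay below ESC, and they were not the lowest members. Rpl29, Rpl3l and the second Rpl7l1 probe lay lower and are not shown, and the promoter table held no start for Rpl29. Rpl35, Rpl38 (brighter probe) and Rpl28 are shown as bright genes, whose EpiSC means lay 0.20, 0.26 and 0.20 above ESC on the log2 scale.
Rpl22, first listed start (chr4:152325711-152325740, plus strand): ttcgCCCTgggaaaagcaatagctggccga
Rpl22, second listed start (chr4:152324421-152324450, plus strand): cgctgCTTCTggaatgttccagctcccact
Rpl22l1 (chr3:28805493-28805522, plus strand): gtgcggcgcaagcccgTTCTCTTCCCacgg
Rplp0 (chr5:115559452-115559481, plus strand): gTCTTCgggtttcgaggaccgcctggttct
Rpl27a (chr7:109519180-109519209, plus strand): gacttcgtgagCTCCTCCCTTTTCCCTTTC
Rps15a (chr7:118116133-118116162, minus strand): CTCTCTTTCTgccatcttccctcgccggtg
Rpl5 (chr5:107900513-107900542, plus strand): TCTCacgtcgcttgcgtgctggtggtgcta
Rps9 (chr7:3704026-3704055, plus strand): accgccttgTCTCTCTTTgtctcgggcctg
Rps25 (chr9:44407699-44407728, plus strand): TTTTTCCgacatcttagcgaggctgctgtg
Rpl35 (chr2:39005117-39005146, minus strand): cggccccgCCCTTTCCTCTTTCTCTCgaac
Rpl38 (chr11:114668565-114668594, plus strand): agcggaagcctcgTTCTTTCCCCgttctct
Rpl28 (chr7:4792950-4792979, plus strand): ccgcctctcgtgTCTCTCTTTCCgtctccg

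The table held 57 of the 66 genes, with 68 start sites. A run of at least 8 pyrimidines was sought within 25 bases of the start, on either side. It was found at 29 of the 68 member starts (42.6%), against 19.7% of all 32851 starts in the table. In this wider window the longest run had a median of 7 bases over the member starts and 5 over all starts. It was 20 bases for Rpl27a and 18 for Rpl35, while the Rpl22 starts had runs of 4 and 5. Long runs were thus found at Rpl27a, which lay 0.77 above ESC on the log2 scale, and at Rpl35, which lay 0.20 above. Several short motifs were searched on both strands of the 300 bases from 250 before to 50 after the start. CCGGAA, the core bound by ETS factors, was found at 44.1% of member starts and 14.9% of all starts. AAGATGGC, bound by YY1, was found at 11.8% of member starts and 2.75% of all starts, and 2 member starts held both. The Myc E-box CACGTG was found at 11.8% and 7.15%, and TATAAA at 8.82% and 13.6%. The median log2 difference between EpiSC and ESC was 0.023 over 24 measured genes with the pyrimidine run and -0.0056 over 27 without. For CCGGAA the medians were -0.0082 (25 genes) and 0.065 (26 genes). For AAGATGGC the medians were 0.17 (6 genes) and -0.0056 (45 genes), and for CACGTG -0.0082 (5 genes) and 0.0013 (46 genes). TATAAA was found in 6 measured genes, with a median of 0.51 and a range from -0.25 to 1.38. The median was -0.0082 for the 45 without. Rpl22 (through its second listed start only), Rpl22l1 and Rplp0 were among the 6 genes with TATAAA. These are descriptions with no test.

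Of the 84 probes, 70 were detected (detection p under 0.01) on at least 1 array, 66 of them on all 3. These 70 probes of 59 genes were tested, while 49.0% of all array probes were detected at least once. Every probe of Rpl6, Rpl14, Rpl17, Rplp2, Rps23, Rpl39l and Rps23rg1 was at background on all arrays. The same held for 1 probe each of Rpl4, Rpl23, Rpl27a, Rplp0 and Rpsa and for 2 of Rpl37, which had other probes that were detected. For Rpl23, a large subunit protein, the scanner signals of its 4 probes in E3 were 11252, 10204, 697 and 80.6, the last at background. A probe at background therefore says nothing of whether its gene was expressed. Ribosomal protein genes also have many near-identical pseudogene copies, and binding of their transcripts to these probes was not tested.

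The scanner signals of the 84 probes summed to 7.45% of all signal (E3), 7.31% (T9) and 7.02% (OG2), before any correction. After background correction and quantile normalization, the 70 tested probes had a median log2 intensity of 12.71 (E3), 12.81 (T9) and 12.79 (OG2). Of the 70, 47 were among the brightest 5% of tested probes. The standard error over a probe's beads had a median of 3.48% of the signal (E3), 3.25% (T9) and 3.49% (OG2). In bulk RNA, fewer cells of a type and less RNA per cell cannot be told apart.

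The lines carried the markers of their labels. In EpiSC all 4 naive markers (Tbx3, Klf4, Esrrb and Zfp42) fell, and of the 4 primed markers Fgf5 and Pou3f1 rose (limma adjusted p under 0.05). The other primed markers, Otx2 and Zic2, lay higher in both EpiSC lines and did not pass. Tbx3 was detected in OG2 only and Fgf5 in the EpiSC lines only. Each thus entered the test through 1 side, and their differences, at least 26.3-fold and 12.3-fold, are bounds. Of 14 fibroblast genes listed to follow feeder RNA, 13 had a probe and 2 were detected (E3), 5 (T9) and 6 (OG2). Their summed scanner signals were 1394, 1237 and 1606. Of the defining collagen genes, Col1a2 and Col3a1 were at background on every array. Col1a1 was detected in T9 and OG2, with scanner signals of 90.9 (E3), 103 (T9) and 146 (OG2), and did not pass the limma test (adjusted p = 0.121). Among the 13, Lox fell in EpiSC (limma adjusted p = 0.0342). It was detected in OG2 only, so its fall of at least 11.5-fold is a bound. Thy1 went the other way, with scanner signals of 286 (E3), 121 (T9) and 101 (OG2), and did not pass (limma adjusted p = 0.379). Of the 7 measured, 5 lay lower in the EpiSC mean and 2 higher. The part of the fibroblast genes in the results was not tested.

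**Figure D1:**
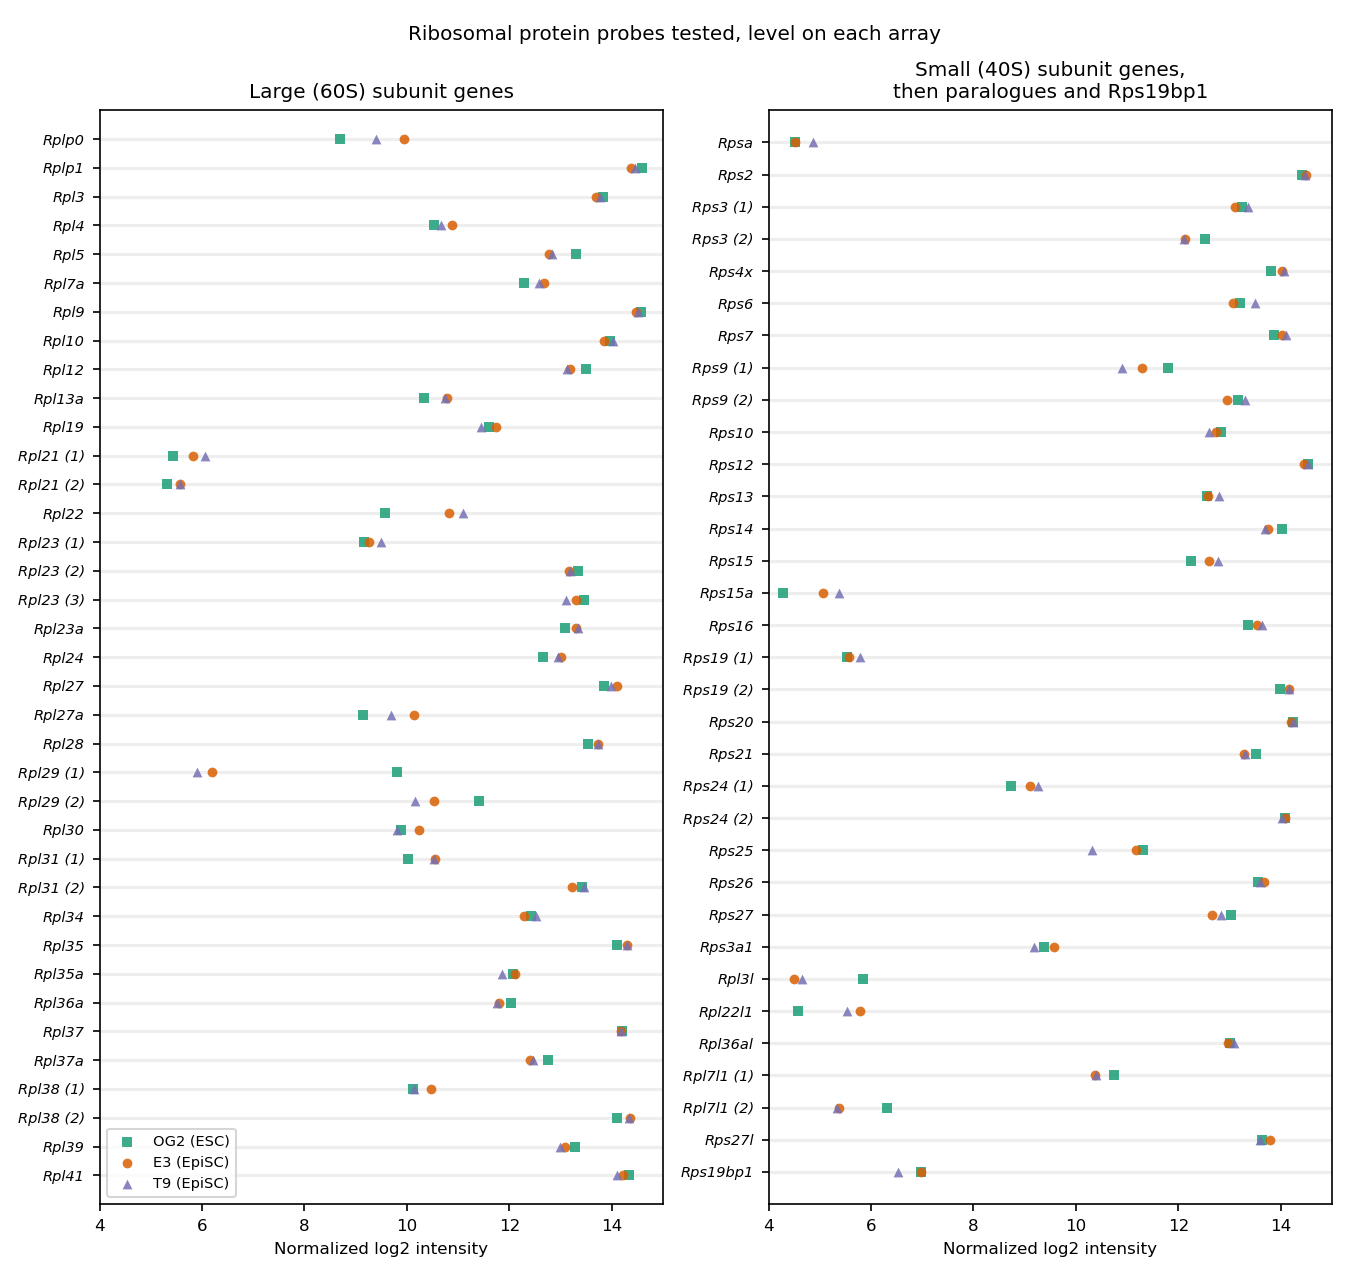
Normalized log2 intensity of each tested ribosomal protein probe (rows, with numbers in brackets for the probes of a gene) on the E3, T9 and OG2 arrays, 1 point per array. The points of a row mostly lie close together, and the widest gap is that of the first Rpl29 probe, at 6.20, 5.90 and 9.80. Positions can be compared along a row, not between rows.

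The 2 EpiSC lines were set against the ESC line to ask how the cell types differ. The median difference of the ribosomal protein probes was close to 0, at -0.0069 on the log2 scale in the EpiSC mean, 0.0022 in E3 and 0.037 in T9. A probe of Rpl29, a large subunit gene whose protein is also known to bind heparin, fell 13.5-fold. It was the only one of the 70 to pass the limma test, where 1.15% of all 12603 tested probes passed in either direction and 0.865% were lower. Rpl22 lay highest, 2.60-fold above ESC, and did not pass.

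The members divided almost evenly, with 34 higher than OG2 in the EpiSC mean and 36 lower. Above OG2 in both lines were 29 (42% of all tested probes), and below it in both were 24 (39.2%). With arrays scaled to their median in place of quantile normalization, 52 were higher and 18 lower, with a median of 0.17 beside 0.098 for all tested probes. Under quantile normalization the median of all tested probes was 0.037. The direction of the family median thus depended on the scaling. Under quantile normalization it also differed by level. Of the 47 members among the brightest 5% of tested probes, 18 were higher and 29 lower, with a median of -0.026. Over all 631 probes of this brightest 5%, 338 were higher and 293 lower, with a median of 0.040. Of the 23 other members, 16 were higher and 7 lower, with a median of 0.23. The counts over all dimmer probes were not computed. These 23 include Rpl22l1, Rps15a and an Rpsa probe, detected in EpiSC lines only, and Rpl3l, detected in OG2 only.

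The large subunit (37 tested probes) had a median log2 difference of -0.0082, with quartiles of -0.17 and 0.26, 18 higher and 19 lower. For the small subunit (26 tested probes) the median was 0.024, with quartiles of -0.13 and 0.17, 13 higher and 13 lower. Over all 70 probes the quartiles were -0.21 and 0.23, beside -0.43 and 0.46 for all tested probes. The EpiSC mean lay within 0.5 of OG2 for 56 of the 70 (80.0%) and for 54.5% of all tested probes. Among the brightest 5%, this held for 44 of the 47 members and 473 of all 631 probes. Before adjustment, 8 members (11.4%) had a limma p under 0.05, 4 in each direction, against 23.2% of all tested probes. Of the 8, Rpl22l1 and Rps15a were detected in EpiSC only and Rpl3l in OG2 only, so each was tested through the side where it lay high. Over probes detected on all 3 arrays, 5 of 66 members (7.58%) had such a p, against 21.0% of all. All 8 were among the 23 members below the brightest 5% (34.8% of them), and the share over all dimmer probes was not computed. Among the brightest 5%, 0 of the 47 members and 68 of all 631 probes (10.8%) had such a p. Of the 23 dimmer members, 12 (52.2%) lay within 0.5 of OG2, so the narrow spread was that of the bright members. The highest member signal was 24315 (E3), 24301 (T9) and 22562 (OG2), where the array maxima were 29455, 26209 and 23519. Whether signals near the top of the range were compressed was not tested.

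A difference of 2-fold or more from OG2 in both EpiSC lines was found for 1 member upward, Rpl22 (6.15% of all tested probes), and for 2 downward, the first Rpl29 probe and Rpl3l (6.64%). Rpl3l was tested only because OG2 detected it, and the downward count was 1 over the probes detected on all 3 arrays. Both comparisons share the OG2 array, so that an error of that array would enter both lines alike.

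**Figure D2:**
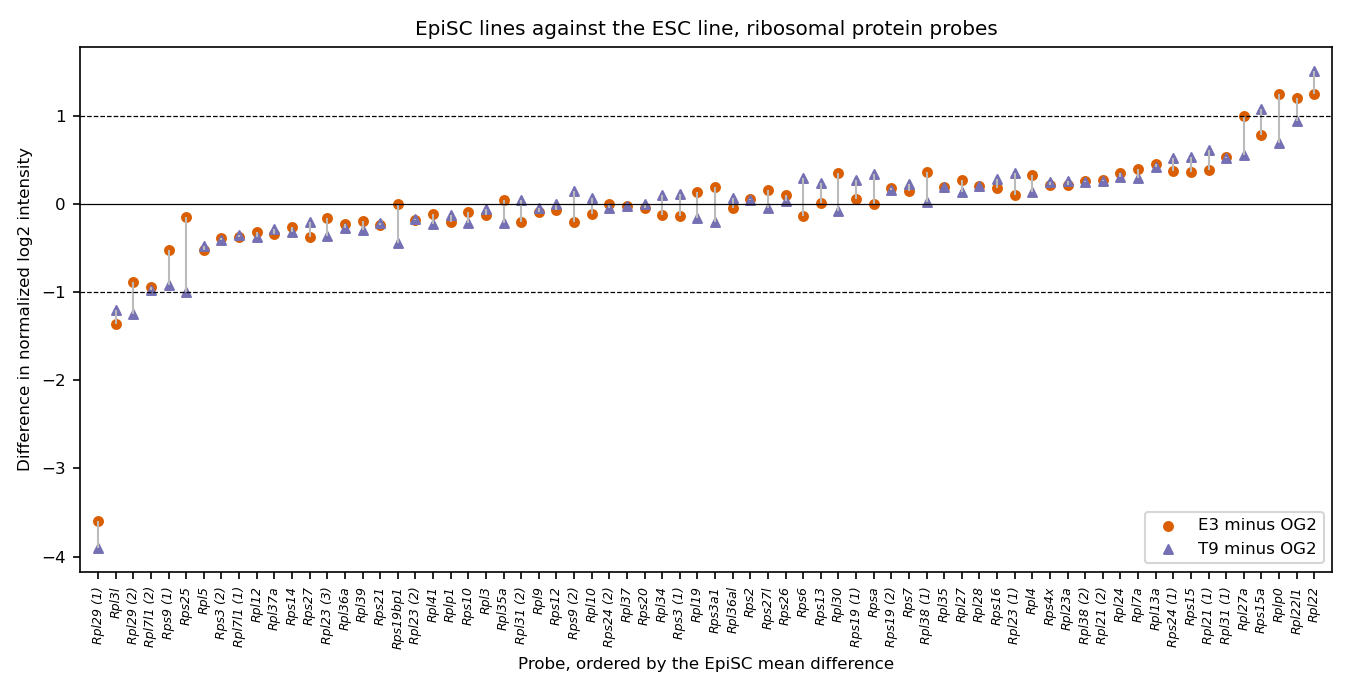
Difference in normalized log2 intensity from OG2 for E3 and T9, for each tested ribosomal protein probe in order of the EpiSC mean, with dashed lines at 2-fold. The first Rpl29 probe stands apart at -3.60 in E3 and -3.90 in T9, and Rpl22 is at the other end at 1.25 and 1.51.

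In the large subunit, Rpl29 had 2 probes. The first (ILMN_2730005) had a scanner signal of 140 (E3), 128 (T9) and 927 (OG2), with bead standard errors of 4.5%, 4.6% and 3.5%. Normalized, these were log2 intensities of 6.20, 5.90 and 9.80. Both EpiSC arrays lay far below OG2 and close to each other. The log2 difference was -3.75 ± 0.28 (limma SE, 2 EpiSC arrays against 1 ESC array, adjusted p = 0.0342). This call was lost without the detection filter (adjusted p = 0.12) and in the authors' processed table (adjusted p = 0.16), the range over 7 alternatives being 0.0162 to 0.16.

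The second Rpl29 probe (ILMN_2857570) had scanner signals of 1576, 1209 and 2680, and normalized log2 intensities of 10.53, 10.16 and 11.41. Again both EpiSC arrays lay below OG2. The log2 difference was -1.06 ± 0.30, a 2.09-fold difference that did not pass the limma test (adjusted p = 0.156). The probes shared a direction, and their sizes differed by 2.69 on the log2 scale. The brighter, second probe represents the gene when 1 probe is kept for each, and then 0 of 59 ribosomal protein genes passed.

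**Figure D3:**
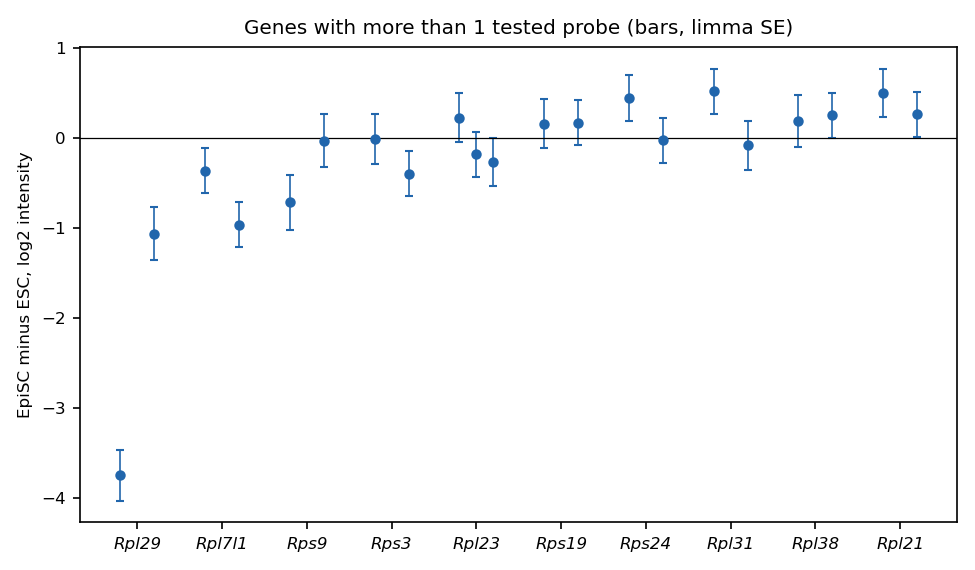
Log2 difference between EpiSC and ESC for each probe of the 10 genes with more than 1 tested probe, with bars of 1 limma SE. The Rpl29 probes lie at -3.75 and -1.06, and the probes of the other genes lie within 0.69 of each other.

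Of the 10 genes with more than 1 tested probe, Rpl29 was the only one whose probes lay 1 or more apart. Probes of 3 genes, Rpl23, Rpl31 and Rps24, lay on both sides of OG2. The Rpl23 probes differed from OG2 by 0.23, -0.18 and -0.26, and the second turned to 0.0039 with median scaling. Those of Rpl31, a large subunit gene, differed by 0.52 and -0.08, and those of Rps24, a small subunit gene, by 0.45 and -0.03. In both of these pairs the first probe lay above OG2 in both EpiSC lines. None of these probes passed the limma test.

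Rpl22, whose protein lies on the large subunit and also binds RNA outside the ribosome, had scanner signals of 1952 (E3), 2237 (T9) and 801 (OG2). Its normalized log2 intensities were 10.83, 11.09 and 9.58. Both EpiSC lines lay above OG2, by more than they lay apart. The difference of 1.38 ± 0.28 did not pass (limma adjusted p = 0.102).

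Rplp0, the core of the large subunit's acidic stalk, had log2 intensities of 9.95 (E3), 9.40 (T9) and 8.70 (OG2). The difference was 0.97 ± 0.35, or 1.96-fold (limma adjusted p = 0.213), with E3 and T9 themselves 0.55 apart. Rpl27a, a large subunit protein, lay at 10.14 (E3), 9.69 (T9) and 9.14 (OG2), a difference of 0.77 ± 0.32. It too did not pass (limma adjusted p = 0.25), although both EpiSC arrays were above OG2.

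Rpl5 carries the 5S ribosomal RNA into the large subunit. Its log2 intensities were 12.78 (E3), 12.83 (T9) and 13.31 (OG2), a difference of -0.50 ± 0.25 (limma adjusted p = 0.314). The EpiSC arrays were nearly equal and both were lower than OG2.

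In the small subunit, Rps15a was detected in both EpiSC lines at log2 intensities of 5.07 and 5.37 and was not well above background in OG2. It entered the test through the EpiSC arrays alone. The level was at least 1.27-fold higher in EpiSC, a bound set by the lowest level among detected probes of the OG2 array, and did not pass (limma adjusted p = 0.173). The first of the Rps9 probes lay at 11.29, 10.89 and 11.81 in E3, T9 and OG2, a difference of -0.72 ± 0.30 (limma adjusted p = 0.262). The second lay at 12.95, 13.31 and 13.16, with T9 above OG2 and E3 below it. The Rpsa probe that was detected, for the laminin receptor protein of the small subunit, was above background in T9 only, at 4.86.

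Several members serve as reference genes for quantitative PCR. Of 8 listed ones 4 were measured. Rplp0 (above) had the widest difference of them. Rpl13a lay at log2 intensities of 10.77 (E3), 10.75 (T9) and 10.33 (OG2), a difference of 0.43 ± 0.25. Rps16 lay at 13.53, 13.64 and 13.36, a difference of 0.23 ± 0.25. Rpl19 lay at 11.74, 11.45 and 11.60, with OG2 between the EpiSC lines, a difference of -0.0082 that turned to 0.086 with median scaling. All 4 missed the limma threshold, with adjusted p from 0.213 to 0.988.

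The X chromosome carries Rpl10, Rpl36a, Rpl39 and Rps4x. For Rps4x, a small subunit gene, the log2 intensities were 14.02 (E3), 14.06 (T9) and 13.81 (OG2), with both EpiSC lines higher. Rpl36a lay at 11.80, 11.76 and 12.03 and Rpl39 at 13.09, 12.99 and 13.29, both lower in both EpiSC lines. Rpl10 lay at 13.84, 14.02 and 13.96, with OG2 between the lines, and its difference of -0.03 turned to 0.14 with median scaling and to 0.015 in the authors' processed table. The widest of the 4 differences was that of Rpl36a, at -0.25 on the log2 scale, and none passed the limma test.

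Some ribosomal proteins bind Mdm2, the ubiquitin ligase of p53. Of 6 listed ones, Rpl5, Rpl23, Rps7 and Rps27l were measured and 0 passed the limma test. Rps7 lay at 14.02 (E3), 14.09 (T9) and 13.87 (OG2), a log2 difference of 0.19 ± 0.25. Rps27l, a paralogue of Rps27 and a known p53 target, had a difference of 0.05 ± 0.27, which turned to -0.073 with cyclic loess. Rpl5 was the lowest of the 4.

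The paralogues are near copies of subunit genes, some of them specific to a tissue. Rpl22l1, the paralogue of Rpl22, was detected in E3 (5.78) and T9 (5.53) and was not well above background in OG2. It was at least 1.72-fold higher in EpiSC (limma adjusted p = 0.143), and it was tested only because the EpiSC arrays detected it.

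Rpl3l, the muscle paralogue of Rpl3, was detected in OG2 (5.85) and was not well above background in E3 or T9. It was at least 2.04-fold lower in EpiSC (limma adjusted p = 0.105), and its log2 difference of -1.28 was -0.47 with no background correction, while Rpl3 lay at 13.70, 13.77 and 13.82. The Rpl7l1 probes were both lower in both EpiSC lines. The second lay at 5.37 (E3), 5.34 (T9) and 6.32 (OG2), a difference of -0.96 ± 0.25 (limma adjusted p = 0.146), and the first differed by -0.36 ± 0.25. Rpl36al, the autosomal paralogue of Rpl36a, lay at 12.97, 13.08 and 13.01, with OG2 between the EpiSC lines. Rpl39l, the testis paralogue of Rpl39, was at background on all arrays.

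Fau encodes a small subunit protein fused to a ubiquitin-like one and falls outside the symbol rule. It lay at log2 intensities of 12.80 (E3), 13.01 (T9) and 12.37 (OG2), a difference of 0.53 ± 0.27 (limma adjusted p = 0.314).

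The EpiSC lines could be set against each other only by size, since each has 1 array. None of the 70 members was 2-fold apart between E3 and T9, where 5.32% of all tested probes were. The median difference was 0.0024, and 68 members (97.1%) lay within 0.5 of each other, against 76.3% of all tested probes. The SD of the E3 minus T9 differences was 0.235 over the members and 0.532 over all tested probes. Among the brightest 5% these were 0.202 and 0.316. The corresponding SD against OG2 was 0.62 for E3 and 0.663 for T9 over the members, and 0.949 and 0.951 over all tested probes. The member farthest apart between the lines, chosen after its values were seen, was Rps25, a small subunit gene. Its scanner signals were 2456 (E3), 1343 (T9) and 2539 (OG2), with bead standard errors of 9.8%, 7.4% and 8.7%. Normalized, E3 lay 1.80-fold above T9 and close to OG2.

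**Figure D4:**
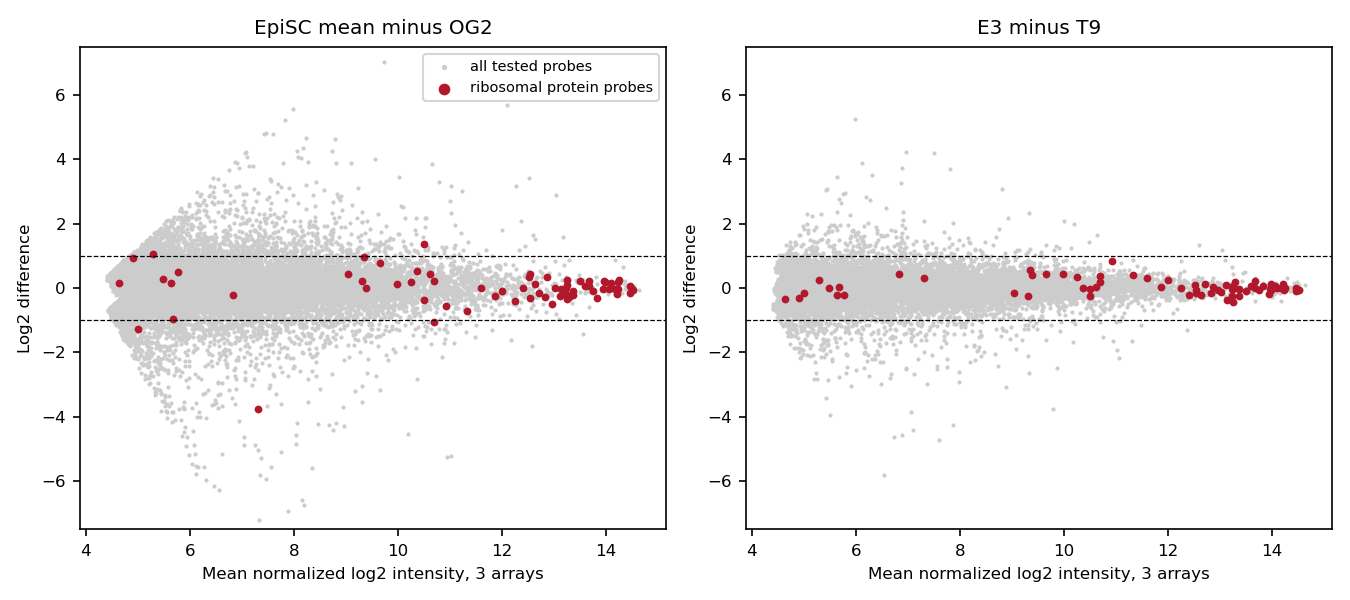
Log2 difference between EpiSC and ESC, and between E3 and T9, against the mean normalized log2 intensity of each tested probe, with all tested probes in grey and ribosomal protein probes in red. The red points lie mostly at the bright end, where the grey points also spread less; the SD of the E3 minus T9 differences is 0.235 over the members and 0.532 over all tested probes.

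Other genes of ribosome production and translation were described with 1 probe per gene. At this level 1.22% of all 8688 genes passed the limma test in either direction (0.299% higher, 0.921% lower), and the median of all genes was 0.05. Ribosome assembly genes had a median log2 difference of -0.04 over 38 measured genes. Tcof1, a nucleolar factor of ribosomal RNA synthesis, lay lowest at -1.25 ± 0.54, followed by Heatr1 at -0.82. Wdr74 (0.58) and Mrto4 (0.53) lay highest, and 0 of 38 passed.

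RNA polymerase I, which makes ribosomal RNA, had a median of 0.05 over 10 measured genes of its subunits and factors. Ubtf, its upstream binding factor, lay at 8.21 (E3), 7.86 (T9) and 9.48 (OG2), a difference of -1.45 ± 0.29 that did not pass (limma adjusted p = 0.105). The subunit Polr1a followed at -0.89. Polr1d lay at 0.72, and Twistnb was detected in E3 only, at 7.45. None of the 10 passed.

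Translation factors whose mRNAs also carry TOP sequences had a median of -0.10 over 14 measured genes, all within 0.5 of OG2. Pabpc1, which binds poly(A) tails, lay lowest (-0.49) with Eif3k (-0.40), and Naca (0.27) and Eif3f (0.20) highest. For mTORC1 and the S6 kinases the median was 0.04 over 12 measured genes. Tsc2, an inhibitor of mTORC1, lay 2.002-fold lower (limma adjusted p = 0.139) and Eif4ebp1, a repressor of translation that mTORC1 phosphorylates, differed by -0.81. Rps6ka3 (0.70) and Rheb (0.29), the activator of mTORC1, lay highest. None of these 26 genes passed.

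Mitochondrial ribosomal proteins, which build the separate ribosome of mitochondria, had a median of 0.11 over 71 measured genes, against -0.0082 over 59 cytosolic ones. Of the mitochondrial genes 43 lay higher (60.6%, against 52.9% of all genes) and 28 lower. None passed, and 4 (5.63%) had an unadjusted p under 0.05, against 24.2% of all genes. Mrpl23 (0.96) and Mrpl27 (0.90) lay highest, and Mrps27 (-0.92) and Mrps24 (-0.85) lowest. For the cytosolic genes 28 lay higher and 31 lower, 0 passed and 6 (10.2%) had an unadjusted p under 0.05. The difference between these lists was not tested.

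**Figure D5:**
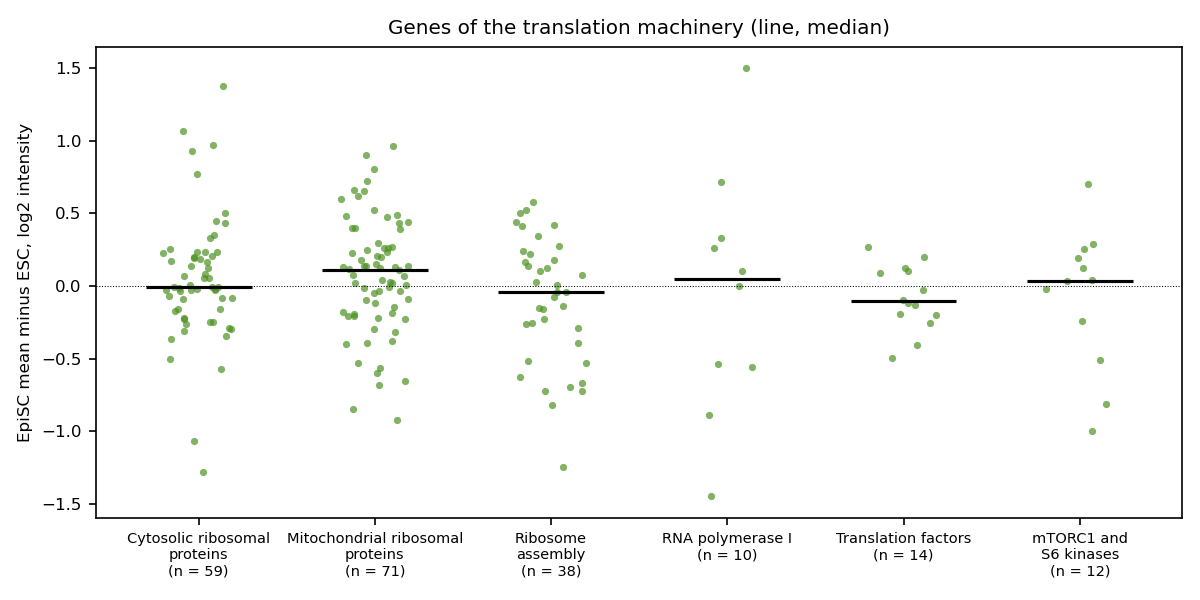
Log2 difference between EpiSC and ESC for each measured gene of the ribosome and translation lists, 1 probe per gene, with a line at each median. The medians lie between -0.10 and 0.11, and single genes such as Ubtf (-1.45) and Rpl22 (1.38) lie farther out.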

How the data were processed

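The authors deposited, for each probe, a linear scanner signal intensity with a bead standard error and a detection p-value, per the file headers. These were neither background-subtracted nor normalized. BeadStudio was used, per the submitters' processing notes, in a version not given in the sources used here. The authors' processed table, linear and of unstated normalization, served as an alternative only. Groups came from the sample titles.

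Signals were corrected with nec of limma 3.58.1 (R 4.3.3; offset 16), taken to log2 and quantile normalized. Probes that 1 or more arrays detected (p under 0.01) were tested with lmFit and eBayes (two-sided, Benjamini-Hochberg over all 12603, threshold 0.05), which was tested on simulated data. The offset understates folds of dim probes. A gene's list value came from its probe with the highest mean level. Symbols came from the platform table (23978 probes with 1, 1719 with none).

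Named were members past the threshold, 2-fold apart in both lines, the 5 highest and 5 lowest, undetected members, and the members or extremes of listed groups. Members and lists were chosen with earlier results of these data known. Alternatives were other scalings, background settings, detection filters, 1 probe per gene, each EpiSC line left out, and the authors' table.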

Additional observations from a re-analysis of the deposited data

How the results depend on the processing

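The count of members past the limma threshold was 1 with median scaling, cyclic loess, no background correction, an offset of 50, or only probes detected on all 3 arrays. It was 0 with 1 probe per gene (unadjusted p under 0.05 for 6 of 59, and 2100 of all 8688 genes), with no detection filter (11 of 84, and 4462 of all 25697 probes) and in the authors' processed table (6 of 70, and 2899 of all 12603), the last 2 calling 0 of all probes. All tested probes past the threshold numbered 145, but 296 with median scaling, 344 with loess, 98 with an offset of 50 and 93 with probes detected on all 3 arrays. The median EpiSC minus ESC difference was 0.17 with median scaling and 0.036 in the authors' table (43 higher, 27 lower), and 0.0022 to 0.037 with 1 EpiSC line left out. Without E3 it was the higher of these. The median E3 minus T9 difference was 0.085 with median scaling and -0.026 with loess. By the authors' values, 6 members were 2-fold from OG2 in both lines, against 3 (all probes 2780, against 1612), and 1 was 2-fold apart between E3 and T9, against 0 (all probes 1812, against 671). The first of these counts was 2 with no background correction, with an offset of 50 and with probes detected on all 3 arrays. The first Rpl29 probe ranged from -4.02 to -2.86. Signs turned for Rpl10 (0.14 with median scaling, 0.015 in the authors' table), Rpl19 (0.086) and the second Rpl23 probe (0.0039), both with median scaling, and Rps27l (-0.073 with loess). With 1 EpiSC line left out they also turned for Rpl10 (0.063 without E3), Rps27l (-0.051 without E3), Rpl19 (0.14 without T9) and Rpl36al (-0.048 without T9). For the other 24 named probes the adjusted p was 0.0701 or more under every tested alternative. The causes were not tested. No paired analysis was possible because each array is a different line and the ESC group has 1 array. The number of arrays limits precision, and probes near background give only bounds.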

Other observations

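Of the Myc family 5 genes were measured, namely Mycl, Max, the partner of Myc, and the Myc antagonists Mnt, Mxi1 and Mxd4. Myc itself was not among them. Mycl lay at 7.68 (E3), 8.08 (T9) and 6.24 (OG2), a difference of 1.64 ± 0.30 that did not pass the limma test (adjusted p = 0.0929). Mxd4 was detected in both EpiSC lines and was not well above background in OG2, so that it was at least 1.65-fold higher in EpiSC (limma adjusted p = 0.223). Mxi1 (0.38) and Mnt (-0.14) were each detected on 1 array, and Max differed by -0.54.

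Of p53 and its targets 3 genes were measured, namely Mdm2, Cdkn1a and Ccng1. Trp53, the gene of p53 itself, was not among them. All 3 were lower than OG2 in both EpiSC lines, as were 3364 of all 8688 genes. None passed the limma threshold, and 1 had an unadjusted p under 0.05, against 24.2% of all genes. Mdm2, the ubiquitin ligase of p53, lay at 9.57 (E3), 9.95 (T9) and 10.92 (OG2), a difference of -1.16 ± 0.30 (limma adjusted p = 0.143). The cell cycle inhibitor Cdkn1a differed by -0.94, with T9 1.01 above E3 on the log2 scale, and Ccng1 by -0.67.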
